A study of Mus musculus with 105 samples.

Results

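Cd34 and Gm16897 are 2 of the 53379 gene rows of the deposited count table, and they were chosen by symbol as a pair that overlaps on opposite strands of mouse chromosome 1. The choice was made with their KO and Ctrl values in these libraries known, so those contrasts, the levels and the ratio of the pair are described here without a test. Poly(A) RNA of C57BL/6 mouse material was sequenced. The 45 libraries compared are of 4 tumour lines, each as the line itself (WT), as a control labelled Ctrl and as a line with Setdb1 knocked out (KO). B16 is a melanoma line, B16OVA a B16 line that carries ovalbumin, MCA101OVA a fibrosarcoma line that carries ovalbumin and MC38 a colon adenocarcinoma line. There are 6 libraries a group in B16OVA and 3 a group in the other lines. The growth protocol has puromycin in the medium of the tumour lines. The remaining libraries are 5 of melanocytes cultured from newborn mice, 48 of 12 tissues of healthy female WT mice (4 a tissue) and 7 single WT libraries of a separate run, B176. The labels do not say whether a KO line is 1 clone or a pool. They also do not say if the libraries of a group were grown apart, so p-values cover the spread between libraries, which may be technical.

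Cd34 encodes a transmembrane sialomucin of the surface of haematopoietic progenitors, small-vessel endothelium, mast cells and some fibroblasts, and on specialised venules its sugars are bound by L-selectin. Gm16897 is a transcript model without a known protein, annotated as antisense to Cd34. Antisense transcripts run through a gene in the opposite direction, and reads of the pair can be told apart only where library and counting keep the strand. Setdb1 is a methyltransferase of histone H3 lysine 9 that silences retroelements and some genes near them.

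In GRCm38, with GENCODE vM21, Cd34 (ENSMUSG00000016494, protein coding) lies at chr1:194938819-194961279 on the plus strand. Gm16897 (ENSMUSG00000097325, type antisense) lies at chr1:194955759-194976960 on the minus strand. Their bodies share 5521 bp at the 3′ ends of both, so the start sites are 38141 bp apart and Gm16897 begins 15681 bp past the end of Cd34. The exons share far less. Only 148 bp (chr1:194959066-194959213) lie in exons of both, in exon 7 of the 8 exons of Cd34 and exon 4 of the 5 exons of Gm16897. That is 2.03% of the exon length of Cd34 (7290 bp over all its transcripts) and 5.94% of that of Gm16897 (2492 bp). Exon 7 of Cd34 is coding, and it is printed to show the stretch that lies in exons of both Cd34 and Gm16897. The shared bases are in capitals, and the sequence is read on the Cd34 strand from chr1:194959066-194959230.
Cd34 exon 7: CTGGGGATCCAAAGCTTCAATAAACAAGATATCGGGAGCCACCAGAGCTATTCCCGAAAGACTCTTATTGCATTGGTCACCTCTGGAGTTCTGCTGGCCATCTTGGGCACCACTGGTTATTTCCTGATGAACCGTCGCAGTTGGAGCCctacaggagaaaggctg

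At its far end Gm16897 meets A330023F24Rik, a transcript of the plus strand that is the host of the microRNAs Mir29b-2 and Mir29c. The exons of these 2 genes share 426 bp (chr1:194976375-194976800), all in exon 1 of Gm16897, so the antisense gene starts head to head with this neighbour and not with Cd34.

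**Figure D1:**
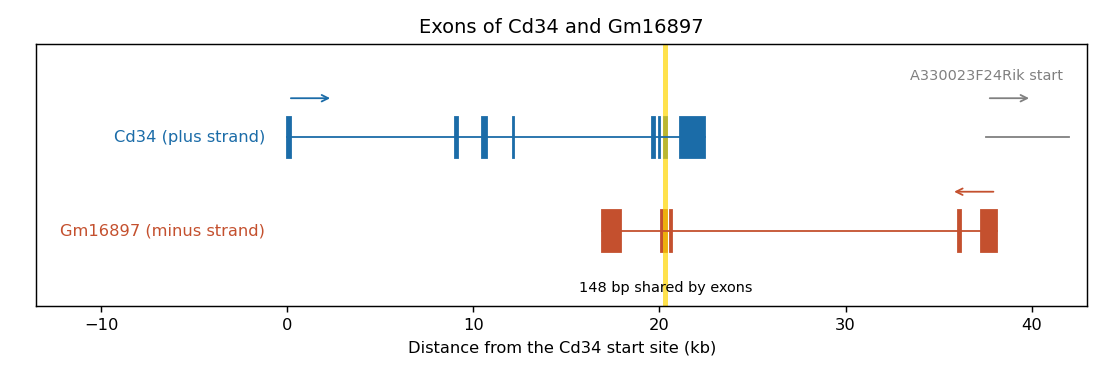
Exons (boxes) and introns (lines) of the annotated transcripts of Cd34 and Gm16897, by distance in kb from the Cd34 start site; arrows show the direction of transcription. The yellow band is the 148 bp in exons of both genes, and A330023F24Rik starts within exon 1 of Gm16897.

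The counts keep the strand. The libraries were made with a stranded kit, per the labels, and the table itself was checked with genes whose exons lie wholly inside exons of another gene, where every read would be ambiguous if strand were ignored. Of 485 such genes inside exons of the opposite strand, 408 (84.1%) have a count. Of 727 inside exons of the same strand, 30 (4.13%) have one, beside 79.8% of all genes. A count of Gm16897 was therefore read as a minus-strand read and a count of Cd34 as a plus-strand read.

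The windows of 250 bases before each start site are given because the 2 genes differed in which groups held them. Both are from RefSeq on GRCm38.p6, 5′ to 3′ on the strand of the gene, with CG dinucleotides in capitals. That of Cd34 is chr1:194938571-194938820 (plus strand) and that of Gm16897 is chr1:194976960-194977209 (minus strand).
Cd34 promoter: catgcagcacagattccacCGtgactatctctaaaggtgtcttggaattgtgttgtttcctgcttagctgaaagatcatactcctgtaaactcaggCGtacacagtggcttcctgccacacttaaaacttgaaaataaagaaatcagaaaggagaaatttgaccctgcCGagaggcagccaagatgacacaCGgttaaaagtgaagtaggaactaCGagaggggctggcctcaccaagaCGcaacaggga
Gm16897 promoter: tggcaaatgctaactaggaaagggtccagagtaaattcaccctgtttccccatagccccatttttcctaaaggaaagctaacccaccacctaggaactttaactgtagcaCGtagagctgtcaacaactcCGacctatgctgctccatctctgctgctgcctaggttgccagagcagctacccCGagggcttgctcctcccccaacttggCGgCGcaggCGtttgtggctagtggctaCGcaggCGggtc
The Cd34 window holds 6 of these dinucleotides at a GC content of 46.4%, and the Gm16897 window 8 at 54.8%. The median over 32851 mouse windows of the same length is 6, and 53.7% and 59.7% of windows hold at most the number of Cd34 and of Gm16897. Neither window holds TATAAA (the TATA box) on either strand, a motif found in 12.4% of all windows. The CCAAT box, searched as those 5 letters and found in 33.8% of windows, and the GC box, searched as GGGCGG and found in 32.7%, were absent from both as well.

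Levels are given in CPM, the count scaled to a library total of 1000000, and in the tumour lines a level of 0.1 CPM is only a few reads. Divided by 1000000, the libraries of these lines held 17.2 to 50.4 counts in all, against 19.9 to 30.6 in melanocytes, 53.6 to 254 in tissues and 36.2 to 58.2 in run B176. The targeted gene Setdb1 averaged 17.1 CPM in B16 KO against 62.2 in B16 Ctrl, 33.5 against 70.4 in B16OVA, 27.9 against 68.0 in MCA101OVA and 73.2 against 100.8 in MC38. KO and Ctrl ranges overlapped in B16OVA, where Ctrl replicate 2 held 21.1 CPM against 15.6 to 49.9 in KO, and in MC38, where Ctrl replicate 1 held 54.9 against 60.05 to 85.3. Its fall was called in B16, B16OVA and MCA101OVA (edgeR, adjusted p = 9.8e-05, 2.17e-04 and 0.00749) and not in MC38 (log2 fold -0.52, SE 0.28, adjusted p = 1). In 7 of the 45 libraries log2 CPM, relative to each gene's mean over the 45, falls with exon length by more than 0.2 per doubling. The steepest is B16OVA Ctrl replicate 2 (slope -0.715), which has no read of Cd34 or Gm16897. The 7 also include MCA101OVA Ctrl replicate 2, MC38 Ctrl replicate 1, and B16 and B16OVA KO replicate 2.

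In the KO libraries Gm16897 was higher than in Ctrl in every line, while Cd34 was higher in MC38, lower in MCA101OVA and near 0 in Ctrl and KO of both B16 lines. Cd34 stood at 15.1 times the Ctrl level in MC38 KO and at 0.394 times in MCA101OVA KO. The share of Gm16897 in the counts of the pair was therefore 88.6% in MCA101OVA KO and 1.31% in MC38 KO, against 1.11% and 1.01% in their Ctrl groups.

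The largest antisense signal was that of MCA101OVA. Gm16897 stood at 4.002, 4.59 and 2.99 CPM in the 3 KO libraries, at 0, 0.0457 and 0 in Ctrl and at 0.0232, 0 and 0 in WT. The groups do not overlap: all 3 Ctrl libraries together hold 1 read and the KO libraries 419. The ratio of KO to Ctrl was 272 (95% counting interval 48.5 to 10764). The fitted log2 fold was 7.64 (SE 0.94). It rests on that single read, since it was 10.05 without Ctrl replicate 2, which holds the read, and 7.01 without Ctrl replicate 3. Intervals here cover counting error only. Cd34 was lower in the same libraries, with 0.454, 0.564 and 0.447 CPM in KO, 1.01, 1.60 and 1.18 in Ctrl and 0.860, 0.785 and 0.635 in WT. Every KO library lay below every Ctrl and every WT library. The KO to Ctrl ratio was 0.394 (95% counting interval 0.275 to 0.558, 54 against 89 counts) and the KO to WT ratio 0.643 (0.447 to 0.918). The fitted log2 fold against Ctrl was -1.52 (SE 0.60), and -1.08 without Ctrl replicate 2, the highest Ctrl library and one of those with a fall of CPM with length. Per kb of exon, the scale on which the genes can be compared, Gm16897 averaged 1.55 CPM per kb in MCA101OVA KO and Cd34 0.0670. In Ctrl these levels were 0.00611 and 0.173. Gm16897 made up between 87.0% and 89.8% of the pair's counts in the KO libraries and between 0% and 2.78% in Ctrl.

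In B16, Gm16897 stood at 0.607, 0.350 and 0.658 CPM in KO, at 0.0213, 0.0300 and 0.0296 in Ctrl and at 0, 0.0310 and 0.0794 in WT. All KO libraries lay above all others. The ratio to Ctrl was 20.98 (95% counting interval 6.88 to 104, against 3 Ctrl reads), with a fitted log2 fold of 4.19 (SE 0.81). In B16OVA the 6 KO libraries ran from 0.0685 to 0.367 CPM with a median of 0.118, and the Ctrl libraries from 0 to 0.0357 with 4 of 6 at 0. The groups do not overlap, and the ratio was 14.4 (3.69 to 124, against 2 Ctrl reads). The WT libraries of B16OVA reached 0.0787 CPM and overlapped with KO. The fitted log2 fold against Ctrl was 3.29 (SE 0.76). Cd34 gave 2 reads over the 3 B16 KO libraries and 2 over Ctrl, and 5 over the 6 B16OVA KO libraries and 5 over Ctrl, so a change of it was not detectable at this depth in these lines. Its highest KO library held 0.0583 CPM in B16 and 0.0616 in B16OVA.

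In MC38 both genes were higher in KO. Cd34 stood at 64.2, 22.2 and 14.4 CPM in KO, at 4.01, 2.14 and 1.09 in Ctrl and at 1.60, 0.785 and 0.467 in WT. All KO libraries lay above all Ctrl and WT libraries, while Ctrl and WT overlapped. The ratio to Ctrl was 15.1 (95% counting interval 13.05 to 17.6, 2192 against 197 counts) and to WT 37.3 (30.3 to 46.3). The fitted log2 fold against Ctrl was 3.71 (SE 0.61). It was 2.80 without KO replicate 1 and 4.36 without Ctrl replicate 1, each the highest library of its group. Gm16897 stood at 0.706, 0.4996 and 0.116 CPM in KO, at 0.0414, 0 and 0.0376 in Ctrl and at 0.0886, 0.0314 and 0.0292 in WT. KO lay above both other groups, with a ratio to Ctrl of 19.7 (4.98 to 170, against 2 Ctrl reads) and a fitted log2 fold of 3.93 (SE 0.89), which was 3.29 without Ctrl replicate 2. The share of Gm16897 in the pair was 1.31% (exact 95% interval 0.876 to 1.87) in KO, 1.01% (0.122 to 3.58) in Ctrl and 5% (1.64 to 11.3) in WT. Over the same exon lengths, Cd34 averaged 4.61 CPM per kb in MC38 KO and Gm16897 0.177.

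These KO contrasts were among the results the 2 genes were picked on, and the share of all 16809 tested genes called at an edgeR adjusted p under 0.05 stands beside them as background only. It was 0.69% for B16, 1.05% for B16OVA, 0.345% for MCA101OVA and 0.464% for MC38.

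**Figure D2:**
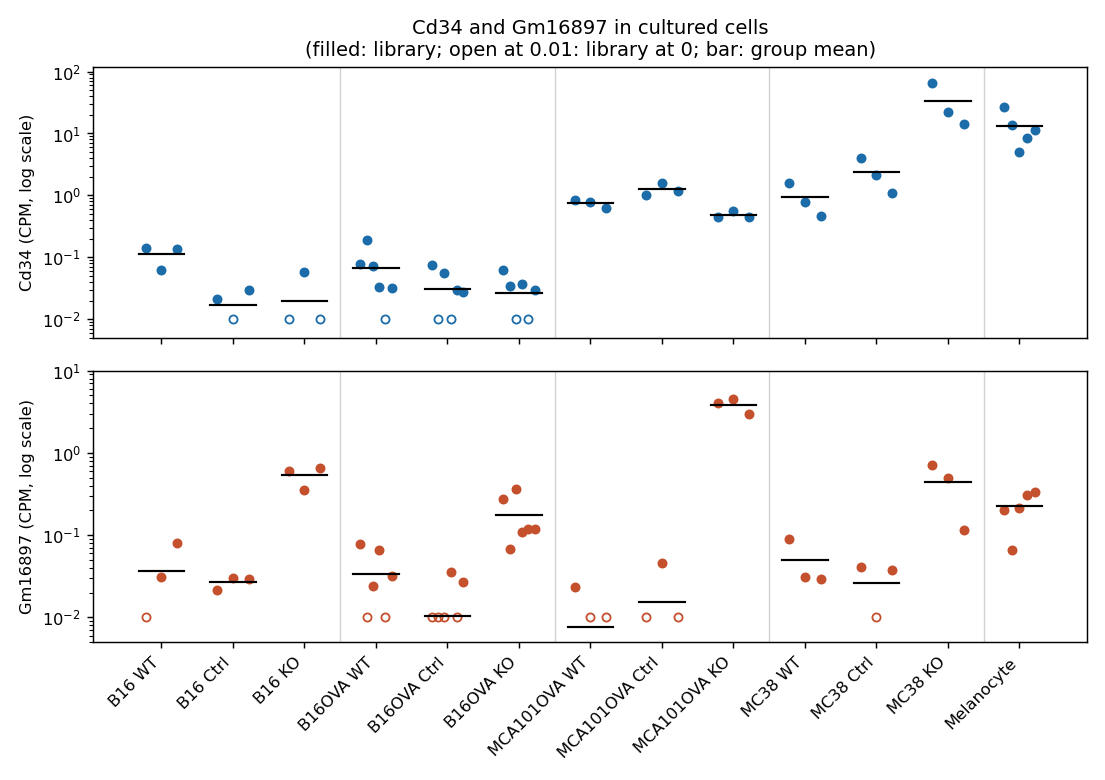
Cd34 (top) and Gm16897 (bottom) in CPM on a log axis, by line and condition and in melanocytes; filled points are libraries, open points at 0.01 are libraries with no read and bars are group means. Gm16897 is higher in KO than in Ctrl in all 4 lines, and Cd34 is higher in MC38 KO (14.4 to 64.2 CPM) and lower in MCA101OVA KO (0.447 to 0.564 CPM).

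The spread of Cd34 in MC38 was wide in all 3 conditions, with the highest library at 3.42 times the lowest in WT, 3.68 times in Ctrl and 4.45 times in KO. In each condition the library with the most Cd34 also had the highest summed level of 4 epithelial markers (869 CPM in WT, 1926 in Ctrl and 1259 in KO), nearly all from the keratins Krt8 and Krt18. It also had the highest endothelial sum (11.05, 20.8 and 10.2 CPM) and the highest sum of haematopoietic progenitor markers (98.6, 65.01 and 51.3 CPM). Epcam and Cdh1, which define colon epithelium, were under 0.1 CPM in every MC38 group. The epithelial sums overlapped between conditions, from 454 to 869 CPM in WT, 520 to 1926 in Ctrl and 658 to 1259 in KO. Of 8 fibroblast markers, 4 were tested. The collagens Col1a1 and Col1a2 were called higher in MC38 KO: Col1a1 rose from 0.883 ± 0.148 to 8.28 ± 2.34 CPM and Col1a2 from 4.78 ± 1.403 to 57.5 ± 23.1 (mean ± SD, n = 3, edgeR adjusted p = 2.4e-04 and 0.00879). Col3a1 was at 126 ± 13.5 against 119 ± 29.7 CPM and Pdgfra at 14.05 ± 6.57 against 8.91 ± 4.47, and neither was called. Of all 16809 tested genes, 0.464% were called in this contrast. Dpt, Dcn and Lum were under 0.1 CPM. The fibroblast sum was 159 to 231 CPM in KO and 98.8 to 154 in Ctrl. In WT the sum was 128 to 206 CPM, a range that overlapped with both KO and Ctrl. Of the endothelial markers, Kdr, Tek, Tie1, Emcn and Pecam1 were under 0.1 CPM in all 3 groups, while Egfl7 stood at 7.97 ± 0.849 CPM in KO and 10.7 ± 8.26 in Ctrl, Cdh5 at 1.01 ± 0.241 and 0.448 ± 0.0653, and Esam at 0.327 ± 0.142 and 0.375 ± 0.262. The endothelial sum was 8.54 to 10.2 CPM in KO and 5.98 to 20.8 in Ctrl. Of the haematopoietic progenitor markers, Kit and Flt3 were under 0.1 CPM, and Gata2 stood at 21.1 ± 2.63 CPM in KO and 22.3 ± 3.68 in Ctrl, Ly6a at 19.9 ± 8.34 and 24.1 ± 15.4, and Meis1 at 5.34 ± 1.59 and 5.60 ± 1.31. No endothelial or progenitor marker was called, and all 4 mast cell markers were at 0 in every MC38 library. The part of these markers in the change of Cd34 was not tested. MCA101OVA, labelled fibrosarcoma, held Krt8 and Krt18 (854 to 1744 CPM summed in KO, 976 to 1320 in Ctrl), and its fibroblast sums overlapped (47.9 to 588 in KO, 56.2 to 490 in Ctrl).

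Ctrl was then set beside WT, neither of which carries the knockout. These levels too are named in the choice of the pair and are described without a test. Of the 16809 genes, 0% were called in each of B16, B16OVA, MCA101OVA and MC38 (edgeR, 45 libraries), which is background only. Cd34 had 2 reads in B16 Ctrl and 13 in WT, with every Ctrl library below every WT library (log2 fold -2.47, SE 0.98). In MC38 the log2 fold was 1.41 (SE 0.58), with overlapping ranges. In MCA101OVA all Ctrl libraries lay above all WT libraries (ratio 1.63, 95% counting interval 1.19 to 2.23, log2 fold 0.94, SE 0.59). Gm16897 had 1 to 7 reads in each of these groups, and its ranges overlapped between Ctrl and WT in all 4 lines.

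Among WT cells, Cd34 was lower in the B16 lines than in MC38, MCA101OVA and melanocytes, again as a description without a test. Within run D176, melanocytes held 27.0, 13.8, 4.96, 8.56 and 11.53 CPM and the 3 B16OVA WT libraries 0.0330, 0 and 0.0319. The fitted log2 fold of B16OVA minus melanocytes was -8.95 (SE 1.02), in a contrast in which 38.7% of 16020 genes were called. Against MC38 WT it was -5.04 (SE 0.97), where 33.7% were called. In runs B253 and B262 the log2 fold against MCA101OVA WT was -2.90 (SE 0.57), where 35.9% of 14699 were called, and against B16 WT -0.12 (SE 0.63), where 0.0068% were called. The WT ranges of MC38 (0.467 to 1.60 CPM) and MCA101OVA (0.635 to 0.860) overlap. Gm16897 did not pass the filter on low counts in these fits.

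The melanocyte cultures were mixed in their markers. Melanocyte 1 had the most Cd34 (27.0 CPM), the largest fibroblast sum (16561 CPM, against 147 to 2255 in the others) and the smallest sum of 6 melanocyte markers (12419 CPM, against 45674 to 65713). Leukocyte sums ran from 187 to 4384 CPM, mostly Lyz2, and the latter value is that of melanocyte 5. The B16 lines held all 6 melanocyte markers at 1 CPM or more, with fibroblast sums of at most 24.2 CPM. The part of these markers in the Cd34 difference was not tested. In bulk samples fewer cells that express a gene and less RNA per cell cannot be told apart. Gm16897 stood at 0.201, 0.0654, 0.216, 0.308 and 0.331 CPM in the 5 melanocyte libraries, so the library with the most Cd34 was not the one with the most Gm16897. Its share of the pair was 1.72% (exact 95% interval 1.14 to 2.47).

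The libraries labelled MC38 differ greatly in Cd34 by run. In run B176, 1 library each of MC38 carrying ovalbumin, MC38 carrying GFP and MC38 held 977, 473 and 182 CPM, while MC38 WT of run D176 held 0.467 to 1.60. The B176 values are above all other libraries of cultured cells, and those of the first 2 are above the highest tissue library (265 CPM in Lung). Gm16897 had 6, 3 and 2 reads there (0.1497, 0.0570 and 0.0454 CPM), or 0.0153%, 0.0121% and 0.0249% of the pair. The level of Gm16897 in the library carrying ovalbumin was above those of MC38 WT and Ctrl in run D176 (0 to 0.0886 CPM), while its share of the pair was small. The same 3 libraries had almost no Krt8 and Krt18 (epithelial sums of 1.97, 0.152 and 0.159 CPM against 454 to 1926 in run D176). Their Col3a1 was 2575, 317.7 and 83.5 CPM, against 84.4 to 175 in the MC38 libraries of run D176. It was thus higher in the first 2, while the last lay next to the lowest D176 library. All of these libraries go against the other MC38 libraries in Krt8 and Krt18. Each group is a single library, and run and cell stock cannot be told apart. No contrast above uses them. The other B176 libraries were nearer to their lines, with Cd34 at 1.83 CPM in MCA101OVA, 0.395 in MCA101 without ovalbumin, 0.111 in B16OVA and 0.104 in B16.

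**Figure D3:**
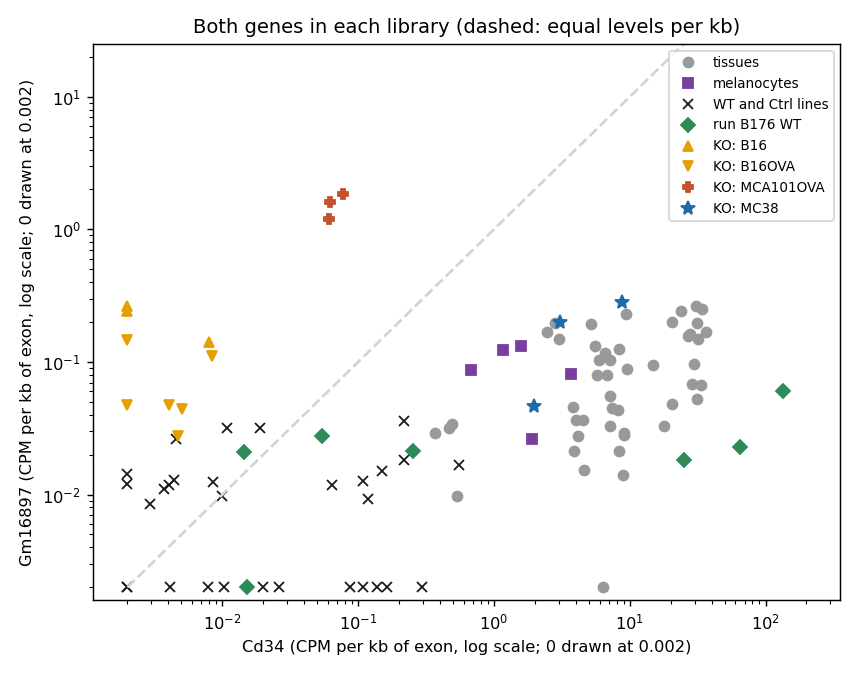
Level of Gm16897 against Cd34 in each library, in CPM per kb of exon over all transcripts of a gene, on log axes. Libraries at 0 are drawn at 0.002, and the dashed line marks equal levels on this scale. MCA101OVA, B16 and B16OVA KO libraries lie above the line, while MC38 KO, melanocyte and tissue libraries lie below it and the B176 libraries labelled MC38 reach the highest Cd34 levels. Every B16 Ctrl library and some WT and Ctrl libraries of both B16 lines, all with few reads of the pair, lie above it as well.

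In every library of the healthy tissues Cd34 stood above Gm16897, and both varied widely between tissues. Cd34 averaged 241 ± 18.8 CPM in Lung, 224 ± 14.3 in Skin, 189 ± 42.6 in Ovary and 146 ± 27.1 in Heart (mean ± SD, n = 4 each). The ranges of neighbours among these 4 overlap, and all lie above the rest. LN (label as given) followed with 66.8 ± 2.00 CPM, apart from Heart and from Stomach, though the highest Colon library (67.8) reached its range. Stomach (55.9 ± 4.998), Colon (55.5 ± 11.2), Kidney (46.1 ± 5.16), Thymus (40.6 ± 10.2), Spleen (29.7 ± 2.38) and Brain (24.6 ± 8.86) formed a chain in which each range overlaps the next. Liver was lowest at 3.39 ± 0.529 CPM, below all other tissues. With library sizes scaled by TMM, Heart came first at 228 CPM and Ovary fell to 147, while Liver stayed last at 7.06.

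The summed level of 8 endothelial markers was highest in Lung (4138 to 4907 CPM) and was 266 to 297 in Skin, below that of LN (916 to 977) and Kidney (534 to 599). The tissues with the highest median fibroblast sums were Skin (15169 CPM), Ovary (5737) and Lung (2871), which also lead for Cd34 without TMM scaling. Colon (2132) and Stomach (2044) had higher median fibroblast sums than Heart (1743), with less Cd34 than Heart. Mast cell sums were highest in Skin (153 to 186 CPM), then LN (33.3 to 50.97), and were 1.08 to 3.39 in Lung. Progenitor sums were highest in Lung (887 to 1055 CPM) and Skin (476 to 514). In Skin the hair follicle and epidermis markers included Krt14 at 4183 and Krt15 at 1834 CPM. Liver had an endothelial sum of 195 to 236 CPM, above that of Brain (135 to 155), with less Cd34 than Brain. The part of each cell type in the tissue levels was not tested.

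Gm16897 stood at 0.548 ± 0.110 CPM in Lung, 0.442 ± 0.0575 in Brain, 0.365 ± 0.224 in Heart, 0.313 ± 0.154 in Ovary, 0.305 ± 0.192 in Colon and 0.283 ± 0.0322 in Kidney, with each range overlapping the next. Skin (0.178 ± 0.0468), Stomach (0.118 ± 0.0603), LN (0.0998 ± 0.0827), Spleen (0.0874 ± 0.0254), Liver (0.0655 ± 0.0279) and Thymus (0.0470 ± 0.0362) were lower, and Skin lay wholly below Kidney. With TMM-scaled library sizes Heart came first at 0.552 CPM. The highest tissue library held 0.657 CPM, less than each MCA101OVA KO library (2.99 to 4.59). The share of Gm16897 in the pair ran from 0.0768% in Skin to 1.79% in Brain and 1.78% in Liver, and no tissue library exceeded 2.67%. Brain and Skin thus stand at opposite ends: Brain was the second for Gm16897 and the eleventh for Cd34, and Skin the second for Cd34 and the seventh for Gm16897. Across the 12 tissue means the Pearson r of log2(CPM + 0.1) of the pair was 0.52, and 0.67 without Brain. Across the 12 line groups and melanocytes it was 0.17. In 8 tissues 1 of the 4 libraries comes from run D804. In run D812 alone the order of Cd34 was the same. For Gm16897, Ovary passed Heart (0.390 against 0.365 CPM) and LN passed Stomach (0.1214 against 0.1210 CPM).

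**Figure D4:**
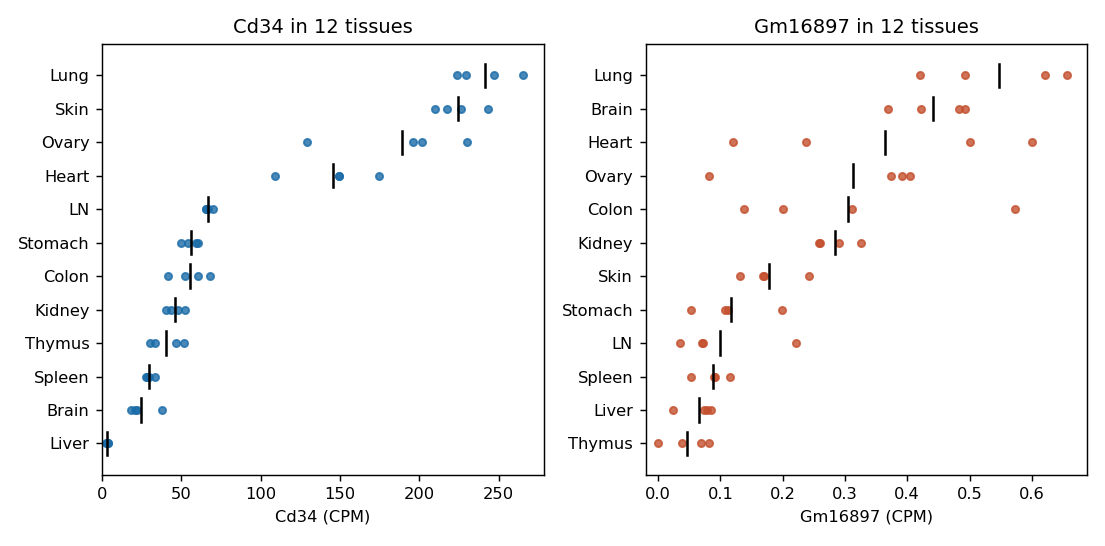
Cd34 (left) and Gm16897 (right) in CPM in 12 healthy tissues, ordered by mean; points are the 4 libraries of a tissue and bars their mean. Lung leads for both, while Brain is near the bottom for Cd34 (24.6 CPM) and second for Gm16897 (0.442 CPM).

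The genes most like Cd34 across the 12 tissue means (of 17065 protein-coding genes that reached a mean of 1 CPM in some tissue) were Osr1, a transcription factor of mesenchyme (r = 0.97), Gfpt2 (0.97), Crispld2 (0.96), Gpx8 (0.95) and Cav1, the caveola protein (0.95). Over the 12 line groups and melanocytes they were Crybg1 (0.97), Rpl39l (0.96), Plac8 (0.95), 1700012B09Rik (0.95) and again Osr1 (0.95). For Gm16897 the tissue list (of 25410 genes of any type that reached a mean of 0.2 CPM) held Prkg1 (0.95), Dach1 (0.95), Tmem44 (0.94), the endothelin receptor gene Ednrb (0.93) and Iqsec2 (0.92). The list over cultured groups held Cyp2b13 (0.91), Gm4316 (0.91), BC026762 (0.90), Fbxw19 (0.90) and Tex19.1 (0.89), each highest in MCA101OVA KO. These points share libraries, and the highest of so many correlations over 12 or 13 means is high by selection. A330023F24Rik, the head-to-head neighbour, had r = 0.79 with Gm16897 over tissues, with 90.1 ± 8.40 CPM in Brain and 24.2 ± 2.00 in Lung, and 0.03 over the cultured groups. Its r with Cd34 over tissues was 0.02.

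The other genes around the pair were read for change in KO. Within 500 kb of Cd34 the table holds 25 other genes, of which 14 had a read in the 45 libraries and 4 were tested: Plxna2, a semaphorin receptor gene, A330023F24Rik, and the complement regulator genes Cd46 and Cr1l. None was called in KO against Ctrl in any line (edgeR, and DESeq2), and none had an unadjusted p under 0.05. Over the lines, 0.345% to 1.05% of all 16809 tested genes were called by edgeR and 2.64% to 7.38% had such an unadjusted p. No call among 4 genes is near these shares and does not set the neighbours apart from other genes. Cr1l, the most abundant, stood at 44.5 ± 4.92 CPM in B16 KO and 48.4 ± 1.55 in Ctrl (log2 fold -0.08, SE 0.29) and at 49.6 ± 5.04 against 44.1 ± 1.53 in MC38 (0.09, SE 0.29). Plxna2 was at 23.0 ± 1.98 CPM in MCA101OVA KO against 27.2 ± 13.7 in Ctrl (-0.31, SE 0.52) and at 24.4 ± 3.90 against 21.9 ± 12.1 in MC38 (0.11, SE 0.52). A330023F24Rik had 5 reads in MCA101OVA KO and 2 in Ctrl, in the libraries where Gm16897 went from 1 to 419. In MC38 it was at 0.425 ± 0.122 CPM in KO and 0.394 ± 0.103 in Ctrl (log2 fold 0.04, SE 0.67). Over the 4 genes the median log2 fold ran from -0.38 for B16 and -0.22 for B16OVA to 0.19 for MCA101OVA and 0.10 for MC38, beside medians of all tested genes of -0.01 to 0.01. With standard errors of 0.20 to 1.35, changes of moderate size in these genes would not have been detectable.

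**Figure D5:**
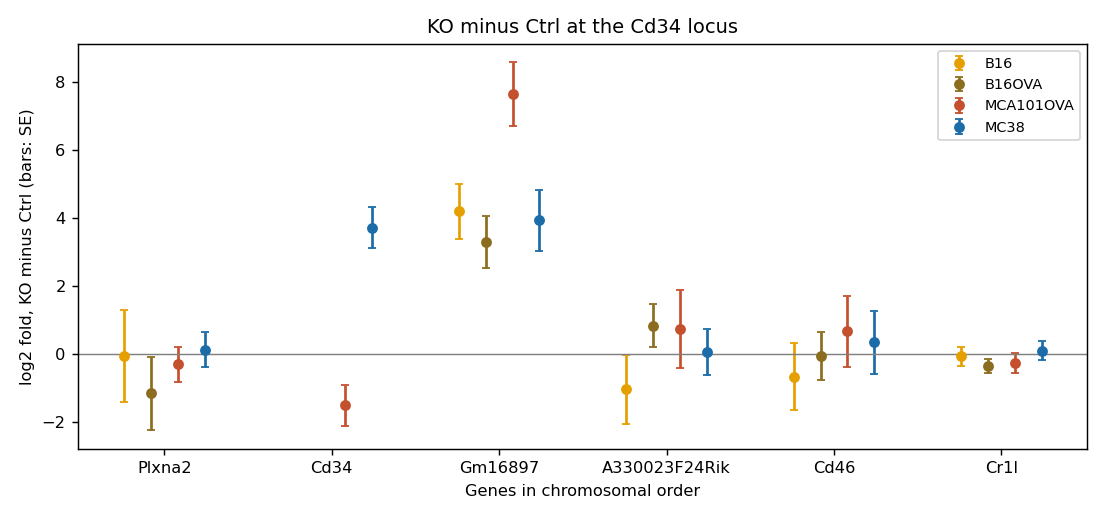
Fitted log2 fold of KO minus Ctrl with its standard error for the tested genes within 500 kb of Cd34, in chromosomal order, with 1 colour a line; Cd34 is left out in B16 and B16OVA, where it has 5 or fewer reads a group. Gm16897 lies between 3.29 and 7.64 in the 4 lines and Cd34 at 3.71 in MC38 and -1.52 in MCA101OVA, while the 4 other genes lie between -1.17 and 0.82.

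The partners of CD34 in adhesion were read next. Of 21 genes for the sialomucin family, selectins, other addressins, adaptors and the enzymes of the selectin-binding sugar, 15 were tested and 0 were called in any line (edgeR, and DESeq2). By edgeR, 0.345% to 1.05% of all 16809 tested genes were called in a line. At an unadjusted p under 0.05 there were 4, 3, 0 and 2 of the 15 for B16, B16OVA, MCA101OVA and MC38, where 2.64%, 7.38%, 5.1% and 2.67% of all 16809 tested genes were. Their median log2 fold was 0.04, 0.20, 0.07 and 0.05 in that order. The most abundant were Ezr, the membrane-actin linker ezrin, with 228 ± 25.2 CPM in MC38 KO and 210 ± 36.5 in Ctrl (log2 fold 0.05, SE 0.26), and the sialyltransferase gene St3gal6 with 42.7 ± 9.74 and 44.1 ± 9.11 (-0.13, SE 0.28). The genes at an unadjusted p under 0.05 were Podxl2, Selp, Slc9a3r1 and B3gnt3 in B16, Podxl2, Selp and B3gnt3 in B16OVA, and Sele and Selp in MC38. Podxl and Podxl2, genes of the same family as Cd34, were chosen after their values were seen, as were the selectins below. Podxl2 stood at 14.8 ± 5.09 CPM in B16 KO against 6.26 ± 2.78 in Ctrl (log2 fold 1.32, SE 0.50, adjusted p = 0.869) and at 13.2 ± 2.82 against 6.57 ± 1.43 in B16OVA (0.84, SE 0.35, adjusted p = 0.538). Podxl, the podocalyxin gene, stood at 66.9 ± 5.31 CPM in MC38 KO against 43.4 ± 12.9 in Ctrl (log2 fold 0.56, SE 0.51, adjusted p = 1) and at 94.1 ± 19.7 against 47.6 ± 29.2 in MCA101OVA (0.92, SE 0.52, adjusted p = 0.878). E-selectin (Sele) was at 2.91 ± 2.68 CPM in MC38 KO and 0.196 ± 0.0659 in Ctrl (log2 fold 3.80, SE 0.96, adjusted p = 0.12). It was called with a replicate block in the fit (adjusted p = 0.0186), without the filter on low counts (3.15e-04) and without KO replicate 3 (0.0435). P-selectin (Selp) was at 1.97 ± 1.42 against 0.375 ± 0.254 CPM in MC38 (log2 fold 2.31, SE 0.85, adjusted p = 0.752). In the B16 lines it had no read in Ctrl. Its level was 0.0696 ± 0.0433 CPM in KO of B16 (adjusted p = 1) and 0.0674 ± 0.0598 in KO of B16OVA (adjusted p = 0.361, and 0.0442 without the filter on low counts).

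Of 16 transcription factor genes of blood and vessels, which include known activators of Cd34 such as Myb, 10 were tested and 0 were called in any line (edgeR, and DESeq2). By edgeR, 0.345% to 1.05% of all 16809 tested genes were called in a line. At an unadjusted p under 0.05 there were 1 (Lmo2), 0, 1 (Myb) and 0 of the 10 for B16, B16OVA, MCA101OVA and MC38, beside 2.64%, 7.38%, 5.1% and 2.67% of all genes. Over the tested genes the median log2 fold was -0.02, 0.16, 0.18 and -0.15 in these lines. Ets1, the most abundant, stood at 144 ± 17.2 CPM in MC38 KO and 144 ± 68.1 in Ctrl (log2 fold -0.05, SE 0.39), and Etv6 at 61.9 ± 5.19 and 61.9 ± 14.4 (-0.07, SE 0.26). Fli1 and Sox17, both factors of endothelium, had no read in the 45 libraries.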

How the data were processed

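Poly(A) RNA libraries were made with a stranded kit, per the labels' protocols. Trim Galore, FastQC, STAR and HTSeq with mm10 are named in the submitters' processing notes; their versions, the annotation, the strand setting and the handling of reads with several hits are not stated there. The deposited table holds raw counts per Ensembl gene, as the authors made them. A second deposited table of scaled values was not used. Of 53379 gene IDs, 53274 matched GENCODE vM21, and 0 library columns were identical. The Cd34 and Gm16897 rows, the gene lists and the tests were chosen with earlier results of these data known.

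CPM is the count scaled to a library total of 1000000. Tests used edgeR 4.0.16 in R 4.3.3 (TMM, filterByExpr by group, quasi-likelihood test, Benjamini-Hochberg over all genes tested, called at an adjusted p under 0.05), with a term for each group and for the run: 45 libraries, 16809 genes and 31 residual degrees of freedom. The SE of an edgeR log2 fold was worked out as its absolute value over the square root of the quasi-likelihood F statistic. No p-value of the pair is given, since its levels were named in choosing it. WT contrasts had separate fits of 11 and 9 libraries that share runs (16020 and 14699 genes). The 7 libraries of run B176 entered no fit. Ratios and shares carry exact 95% binomial intervals. Alternatives were RLE size factors, no filter, DESeq2 1.42.0, no run term, a replicate block, each library left out, TMM-scaled CPM and means of library shares. A fit without 7 libraries of low length slope (under -0.2) was chosen after seeing the data. Genes named from lists are those called in at least 1 line or else the 2 of the highest mean CPM; likeness lists hold the 5 of the highest r.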

Additional observations from a re-analysis of the deposited data

Results flagged for a closer look

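Cd34 changed in opposite directions in 2 lines: every MC38 KO library lay above every Ctrl library (ratio of counts per depth 15.1), and every MCA101OVA KO library lay below every Ctrl library (ratio 0.394). In MCA101OVA every Ctrl library also lay above every WT library (ratio 1.63), and the ratio of KO to WT was 0.643. The difference between the lines was not tested, since the genes were chosen by these contrasts.

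Cd34 was high in libraries that no fit used: 976.6 CPM in the B176 library of MC38 with ovalbumin, 473.02 CPM in that with GFP and 182.4 CPM in that of MC38, against 0.467 to 1.60 CPM in MC38 WT of run D176.

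The lowest ovary library for Gm16897 (0.0822 CPM, run D804) lay apart from the other 3 (0.374 to 0.405 CPM). It also had the least Cd34 of the 4 (129 CPM). Of 48 combinations of group and measure checked, this was the only 1 with such a library, and chance flags about 1 in 20.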

How the results depend on the processing

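Leaving out each library in turn, the log2 fold of KO minus Ctrl kept its sign for the 6 values given: for Gm16897, B16 gave 3.99 to 4.39, B16OVA 2.95 to 3.84, MCA101OVA 7.01 to 10.05 and MC38 3.29 to 4.40, and for Cd34, MCA101OVA gave -1.73 to -1.08 and MC38 2.80 to 4.36. Without the 7 libraries of low length slope, Cd34 was at -1.11 and Gm16897 at 10.10 in MCA101OVA; the 2 Ctrl libraries then left hold no read of Gm16897. In WT cells, leaving out each library gave Cd34 log2 folds of -9.27 to -8.43 against melanocytes, -5.36 to -4.51 against MC38 and -3.42 to -2.54 against MCA101OVA. Against B16 the fold was -0.65 to 0.22 and changed sign. Without the filter on low counts 1 neighbour was called in MCA101OVA (Gm38194, with 0, 0 and 109 reads in KO), and 1 adhesion gene each in B16OVA (Selp) and MC38 (Sele). Leaving out single libraries gave 0 to 1 adhesion genes in MC38. The replicate numbers are in accession order. A block of library sets (runs B253 and D176 and run B262 parted by library number) gave 1 adhesion gene in MC38 (Sele) and changed no other count of called list genes. Deviations from group means were correlated above 0.1 in 9 of 9 pairs within a set in B16 and in MCA101OVA, in 29 of 36 in B16OVA and in 10 of 27 in MC38, so the numbers are not shown to pair all samples. With TMM-scaled sizes, 9 of 12 tissue means of Cd34 moved by more than 1 SD. Gm16897 rests on 1 to 3 reads in each Ctrl group, which limits its ratios.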
